A study of Mus musculus with 8 samples.

Results

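Carbonic anhydrases were followed as 7 genes, Car1, Car2, Car3, Car4, Car5a, Car8 and Car14, with Car3 set against the other 6 across liver tumours and adenovirus-infected liver. They were found by symbol among 18194 genes that had a probe set of a single symbol on the tumour arrays, and among 12394 such genes on the other array type. The genes had 13 probe sets on the tumour arrays, of which 10 were also on the adenovirus arrays. Car3 and its relatives were picked with their signals in these samples known, so the values of the 7 genes are given as a description, with no test.

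Gene expression was measured in p53-/- mice on a C57BL/6J background, so all groups lack p53, and the study concerned telomere dysfunction of the liver. The tumours were hepatocellular carcinomas taken at 12 to 15 months from mice with the HBs transgene. Of the 6, each on its own array, 3 arose where the RNA component of telomerase was present (mTERC+) and 3 where its gene was missing (mTERC-). The livers were taken 48 hours after intravenous infection with an adenovirus, either for TRF2DBDM, a mutant form of the telomere-binding protein TRF2, or for GFP, a fluorescent protein. Each liver array carried RNA pooled from 3 mice, so there is 1 value per virus and no error. Neither the promoter of the HBs transgene nor the sex of the mice is given in the sources used here. The titles of the 6 tumours each carry a different number and the labels speak of 3 mice per group, but no label says outright which mouse bore which tumour.

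Carbonic anhydrases are zinc enzymes that turn carbon dioxide and water into bicarbonate and a proton. The family is spread over the compartments of the cell: Car1, Car2, Car3 and Car8 in the cytosol, Car5a in mitochondria, and Car4 and Car14 on the outer face of the plasma membrane. Liver cells use bicarbonate for the first steps of the urea cycle and of gluconeogenesis. Car3 is abundant in skeletal muscle, fat and liver although it is a slow enzyme, and in rodent liver it has been localised to hepatocytes around the central vein.

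Values are MAS5 signals, an array's brightness per probe set on a linear scale, as scaled by the authors. Differences and ratios are of log2(signal + 32), which compresses changes of dim genes. The median signal of all probe sets was 54.5 to 75.1 on the tumour arrays and 46.1 and 52.5 on the GFP and TRF2DBDM arrays. A gene below that median is called dim here, since no detection calls were used. The array of mTERC- tumour 2 stood apart, with a 3'/5' ratio of the Gapdh control of 13.8 against 0.983 to 1.18 on the other tumour arrays, and a mean correlation with the others of 0.788 against 0.835 to 0.847. The 18S control was at 318.5 and 349 on mTERC- tumours 2 and 3 and at 11009.8 to 27809.9 on the other tumour arrays. All 8 hepatocyte markers with a probe set, among them Alb and Apoa1, were above the array median in each tumour and in both pools.

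Car3 (Entrez Gene 12350) was the carbonic anhydrase that varied most among the tumours. Its signal was 295.1, 1412.3 and 5399.7 in mTERC- tumours 1, 2 and 3, and 3634.9, 2200.7 and 6833.3 in mTERC+ tumours 1, 2 and 3. The highest tumour had 23.2 times the signal of the lowest, and mTERC- tumour 3 lay above 2 of the mTERC+ tumours, so the groups overlapped. The mean was 2369 ± 2683 (SD, n = 3) for mTERC- and 4223 ± 2372 (SD, n = 3) for mTERC+, with a log2 difference of -1.48 (SE 1.26, from the SDs of the groups). That difference rested on single tumours: it was -0.45 without mTERC- tumour 1 and -2.48 without mTERC- tumour 3. The SD of its log2 level over the 6 tumours was 1.60, against a median of 0.54 over 11980 genes, and was exceeded by 43 of them.

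In the pooled livers Car3 was at 3587.6 with TRF2DBDM and 186.3 with GFP. The log2 ratio was 4.05, or 16.6-fold on the scale used, and ranked 2 among the 7789 genes compared. The TRF2DBDM pool lay within the range of the tumours, and the GFP pool lay below the lowest tumour. Each array type was scaled separately, so levels set across them are only side by side. The tissue label of every sample reads hepatocytes, while the design text speaks of liver and tumours, so whether other cells were removed is not settled by the labels. In whole tissue, fewer cells that express Car3 and less Car3 RNA per cell cannot be told apart.

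**Figure D1:**
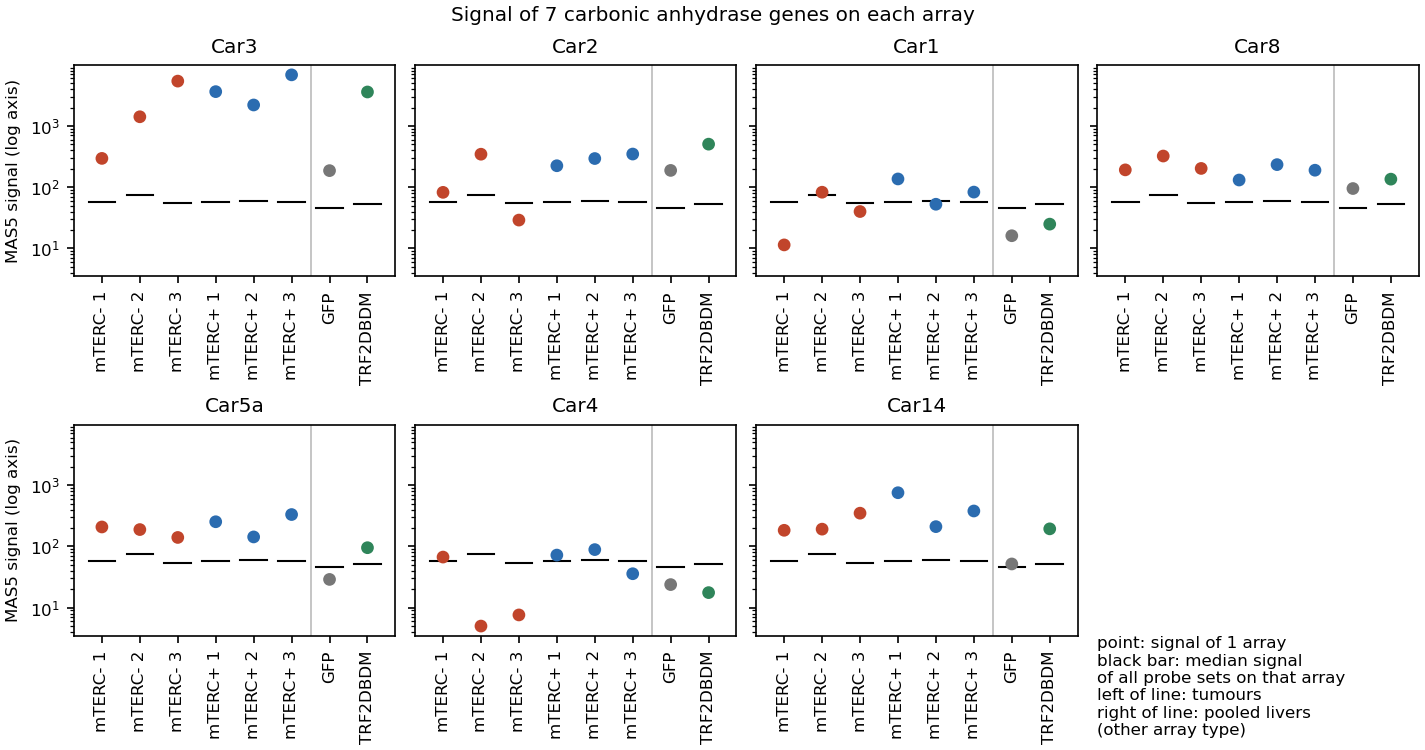
MAS5 signal (log axis) of 7 carbonic anhydrase genes on each array, 1 point per array, with mTERC- tumours in red, mTERC+ tumours in blue and pooled livers in grey (GFP) and green (TRF2DBDM). Black bars mark the median signal of all probe sets on the array; Car3 runs from 295.1 to 6833.3 in the tumours and from 186.3 to 3587.6 in the livers, while Car1 and Car4 lie around or below the bars.

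A second Car3 probe set, 1460256_at, gave the same order of the tumours except at the top. Its signals were 169.8, 274 and 3901.7 in mTERC- tumours 1, 2 and 3, and 1949.7, 1265.5 and 3702.4 in mTERC+ tumours 1, 2 and 3. In the livers it was at 2911.1 with TRF2DBDM and 160.1 with GFP, a log2 ratio of 3.94. The signal of 1449434_at, the probe set used for the gene, over that of 1460256_at was 1.38 to 1.86 on 5 tumour arrays and 1.16 and 1.23 on the GFP and TRF2DBDM arrays. On mTERC- tumour 2 it was 5.15, and this is the array with the Gapdh ratio of 13.8. The log2 levels of the pair of probe sets had a Pearson r of 0.94 over 6 tumours and 0.995 over the 5 without mTERC- tumour 2, given as a description of probe sets that share the same RNA. The part of RNA quality in the Car3 value of that tumour was not tested. Without that tumour the log2 difference of Car3 between groups was -1.52. The other probe sets annotated to Car3, 1453588_at and 1430584_s_at, were dimmer, at 8 to 90.4 and 7.1 to 285.8 in the tumours, and are not on the adenovirus arrays. They did not follow the bright pair: r with 1449434_at over 6 tumours was 0.47 and 0.16, and the log2 difference between groups was -0.21 (SE 0.60) and, turned in sign, 0.62 (SE 0.90). With the mean of the 4 probe sets as the level of the gene, the difference of Car3 was -0.71.

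**Figure D2:**
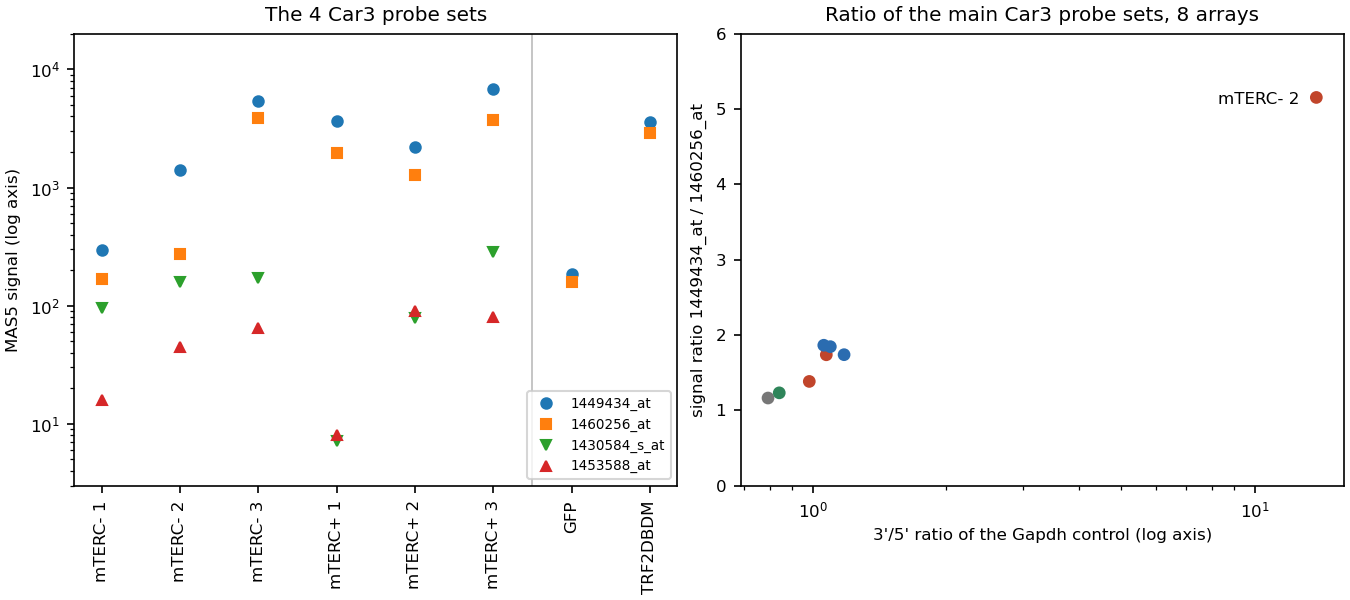
Left, MAS5 signal (log axis) of the 4 Car3 probe sets on each array, of which 2 are on both array types. Right, the signal ratio of 1449434_at over 1460256_at against the 3'/5' ratio of the Gapdh control (log axis) on 8 arrays, coloured by group as mTERC- red, mTERC+ blue, GFP grey and TRF2DBDM green; mTERC- tumour 2 lies alone, at 13.8 and 5.15.

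Car2 and Car1 are the cytosolic neighbours of Car3 in the genome. In the RefSeq annotation of the mouse assembly GRCm38.p6 the genes Car13, Car1, Car3 and Car2 follow each other on chromosome 3 with no other protein-coding gene between them. Car2 (Entrez Gene 12349), a fast enzyme of red cells, osteoclasts and kidney, had signals of 82.3, 345.4 and 29.0 in mTERC- tumours 1, 2 and 3, and 223.9, 293.6 and 347.6 in mTERC+ tumours 1, 2 and 3. The mTERC+ tumours were close together, whereas the mTERC- tumours held both the lowest and the next to highest value. The log2 difference was -1.20 (SE 0.79), and it was -1.92 without mTERC- tumour 2 and -0.61 without mTERC- tumour 3. Tumour 3 of the mTERC- group had the lowest Car2 and the next to highest Car3 of the 6. In the livers Car2 was at 504.2 with TRF2DBDM and 187.8 with GFP, a log2 ratio of 1.29, and the TRF2DBDM pool lay above the tumours.

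Car1 (Entrez Gene 12346), known from red cells and colon, was near the array median in the tumours and dim in the livers. It was at 11.4, 82.7 and 40.0 in mTERC- tumours 1, 2 and 3, and at 136.2, 52.6 and 83.1 in mTERC+ tumours 1, 2 and 3, above the array median in 3 of the 6. The log2 difference was -0.73 (SE 0.50), with overlapping groups, and it was -0.38 without mTERC- tumour 1 and -0.47 without mTERC+ tumour 1. In the livers it was below the array median on both arrays, at 24.9 with TRF2DBDM and 16.1 with GFP. Markers of red cells were read beside Car1 and Car2. The summed signal of 7 erythroid markers was 479.3 to 672.4 in mTERC- and 863.5 to 1321.1 in mTERC+ tumours, and 238 and 264.9 with TRF2DBDM and GFP. The largest part of that sum, except in mTERC- tumour 2, was Alas2, the first enzyme of heme synthesis in red cells. Alas2 was at 390.7, 69.7 and 261.2 in mTERC- and 886.4, 600.9 and 893.7 in mTERC+ tumours 1, 2 and 3 (log2 difference -1.81, limma SE 0.47, adjusted p = 0.906 in limma). Without Alas2 the sums of the 6 other markers overlapped, at 218.1 to 551.7 in mTERC- and 262.6 to 434.7 in mTERC+ tumours, and 3 of the 6 had a higher mean log2 level in mTERC-. Those 3 were Hba-a1, a globin, the transcription factor Klf1 and the membrane protein Epb42, with log2 differences of 0.39, 0.35 and 0.29. Hba-a1 was at 13 to 71.3 and Epb42 at 5.6 to 59 in the tumours. Klf1 was at 74.1, 183.6 and 60.4 in mTERC- and 90.1, 64.2 and 54.6 in mTERC+ tumours 1, 2 and 3. Its highest value was on the array of mTERC- tumour 2, which stood apart. The lower ones, Rhag, Slc4a1 and Ermap, had log2 differences of -0.60, -0.54 and -0.09. Except for Klf1, these markers were above the array median in at most 3 tumours, and values near it carry little signal over background. The part of red cells in the Car1 and Car2 values was not tested.

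Car8 (Entrez Gene 12319) has lost the activity of the enzyme and is known for binding an inositol trisphosphate receptor in Purkinje cells of the cerebellum. It varied least of the 7, with an SD of the log2 level over the tumours of 0.37. Its signals were 191.7, 322.6 and 202.3 in mTERC- tumours 1, 2 and 3, and 130.9, 233.5 and 189.2 in mTERC+ tumours 1, 2 and 3. The highest value belonged to mTERC- tumour 2, and the groups overlapped, with a log2 difference of 0.32 (SE 0.29) that was 0.11 without mTERC- tumour 2 and 0.13 without mTERC+ tumour 1. In the livers it was at 135.2 with TRF2DBDM and 95.0 with GFP, a log2 ratio of 0.40. A further probe set, 1424958_at, was at 149.3 to 256.2 in the tumours but at 28.0 and 18.1 in the livers, below the array median on both. The last one, 1457904_at, was dim in 5 of the 6 tumours.

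Car5a (Entrez Gene 12352), the mitochondrial enzyme of hepatocytes that supplies bicarbonate to carbamoyl phosphate synthetase and pyruvate carboxylase, was even across the tumours. It was at 207.8, 188.5 and 140.1 in mTERC- tumours 1, 2 and 3, and at 252.9, 142.9 and 331.7 in mTERC+ tumours 1, 2 and 3. The log2 difference was -0.33 (SE 0.34), with overlapping groups, and it was -0.10 without mTERC+ tumour 3 and -0.62 without mTERC+ tumour 2. In the livers Car5a was at 95.3 with TRF2DBDM and 28.9 with GFP, a log2 ratio of 1.06. The GFP value was below the array median, and both pools were below the lowest tumour.

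Car14 (Entrez Gene 23831) spans the plasma membrane with its catalytic part outside the cell and is found on mouse hepatocytes. It was at 183.4, 191.5 and 349.1 in mTERC- tumours 1, 2 and 3, and at 753.5, 210.4 and 379.2 in mTERC+ tumours 1, 2 and 3. The highest tumour was mTERC+ tumour 1, and the rest lay between 183.4 and 379.2. The log2 difference of -0.70 (SE 0.56) was -0.26 without mTERC+ tumour 1 and -1.11 without mTERC+ tumour 2. In the livers Car14 was at 193.7 with TRF2DBDM and 51.7 with GFP, a log2 ratio of 1.43, the next highest after Car3 among the 7.

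Car4 (Entrez Gene 12351), which is anchored to the surface of capillary endothelium and some epithelia, was the 1 gene of the 7 below the level needed for testing in the tumours. Its brighter probe set, 1418094_s_at, was at 67.0, 5.0 and 7.6 in mTERC- tumours 1, 2 and 3, and at 72.2, 88.7 and 35.8 in mTERC+ tumours 1, 2 and 3. The other, 1448949_at, lay between 5.0 and 59.8 and above the array median in 1 tumour. Both were below the array median in both livers, at 17.6 and 13.6 with TRF2DBDM and 23.8 and 15.7 with GFP. The log2 difference of 1418094_s_at between the tumour groups was -0.85 (SE 0.52), and it was -1.31 without mTERC- tumour 1. Endothelial markers were read beside Car4, with a summed signal over 9 genes of 1071.8 to 1943.1 in mTERC- and 2325.6 to 2661.7 in mTERC+ tumours, and of 1025.5 and 937.5 over 8 genes with TRF2DBDM and GFP. Their part in the Car4 value was not tested. Among these Icam2, an adhesion molecule of endothelium, was at 147.8, 30.0 and 22.1 in mTERC- and 238.9, 290.5 and 281.4 in mTERC+ tumours 1, 2 and 3. For Icam2 the log2 difference was -1.83 (limma SE 0.48, adjusted p = 0.906 in limma). Icam2 and Gpihbp1 did not overlap, both lower in mTERC-, beside 4.39% of all genes tested with that pattern. The other markers overlapped. Of the 9, 8 had a lower mean log2 level in mTERC-, while Vwf was higher, with a log2 difference of 0.85.

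The promoters of Car5a and Car14 are shown because these genes were higher with Car3 in the TRF2DBDM pool and their sequences were at hand. Each is the RefSeq stretch from 250 bases before to 50 bases after the gene's start in GRCm38.p6, 5′ to 3′ along the gene. Capitals mark the letters CAAAG on either strand (CTTTG on the strand shown), which are part of sites bound by HNF4 and by Tcf factors of the Wnt pathway.
Car5a, chr8:121944863-121945162, minus strand: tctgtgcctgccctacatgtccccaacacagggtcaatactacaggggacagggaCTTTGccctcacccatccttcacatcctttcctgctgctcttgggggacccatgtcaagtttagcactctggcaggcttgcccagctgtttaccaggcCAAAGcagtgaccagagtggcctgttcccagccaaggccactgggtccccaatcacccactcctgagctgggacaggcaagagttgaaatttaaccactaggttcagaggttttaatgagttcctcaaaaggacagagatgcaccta
Car14, chr3:95904636-95904935, minus strand: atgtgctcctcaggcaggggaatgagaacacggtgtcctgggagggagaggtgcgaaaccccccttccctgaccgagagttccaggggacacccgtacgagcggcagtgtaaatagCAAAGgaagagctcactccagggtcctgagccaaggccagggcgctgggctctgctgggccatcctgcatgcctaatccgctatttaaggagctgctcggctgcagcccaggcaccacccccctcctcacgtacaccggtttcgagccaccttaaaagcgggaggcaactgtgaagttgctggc
The Car5a window held CAAAG at 195 and 97 bases before the start, and the Car14 window held it at 134 bases before the start. The Car4 window, also at hand but not shown, held CAAAG 0 times. The same letters were in 54.0% of 27025 mouse promoters of that length, so a match is common. Car5a also held CCAAT at 49 bases before the start, as did 37.9% of the promoters somewhere in the window. TATAAA, TTCNNNGAA (a form of the STAT site) and TTGCNNAA (a form of the C/EBP site), searched on both strands, were in neither of the windows shown, and were in 14.2%, 8.47% and 10.8% of all promoters.

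Set against Car3, Car14 came nearest to its order across the tumours. Over 6 tumours, the Pearson r of the log2 level of Car3 was 0.65 with Car1, 0.65 with Car14, 0.19 with Car5a, 0.14 with Car2, -0.24 with Car8 and -0.26 with Car4, and Spearman's rho was 0.49, 0.83, 0.20, 0.20, -0.43 and -0.09. These points share their array and its scaling and are given as a description. Without mTERC- tumour 1 and mTERC+ tumour 3, the farthest from the median of Car3, r over the 4 left was 0.65 with Car14 but -0.20 with Car1 and -0.86 with Car2. Car3 was 4.39 apart on the log2 scale between its highest and lowest tumour, while the range of the others went from 1.08 for Car5a to 2.64 for Car2. In the livers the log2 ratio of Car3 was 4.05, while those of Car14, Car2 and Car5a were 1.43, 1.29 and 1.06, and those of Car8, Car1 and Car4 were 0.40, 0.24 and -0.17.

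The mean log2 level of 6 of the 7 genes was lower in mTERC- tumours and that of Car8 was higher, and the groups overlapped for all 7. Groups without overlap were found for 10.1% of the 11980 genes tested. Of the 7 genes 5 were bright enough to be compared in the livers, and Car3, Car14, Car2 and Car5a were at least 2-fold higher with TRF2DBDM, where 4.62% of the 7789 genes compared were. Over those genes 2.9% were at least 2-fold lower with TRF2DBDM, or 7.52% in either direction. Nothing is read from these counts, since the genes were picked on the same values, and Car5a was compared through its TRF2DBDM array alone.

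**Figure D3:**
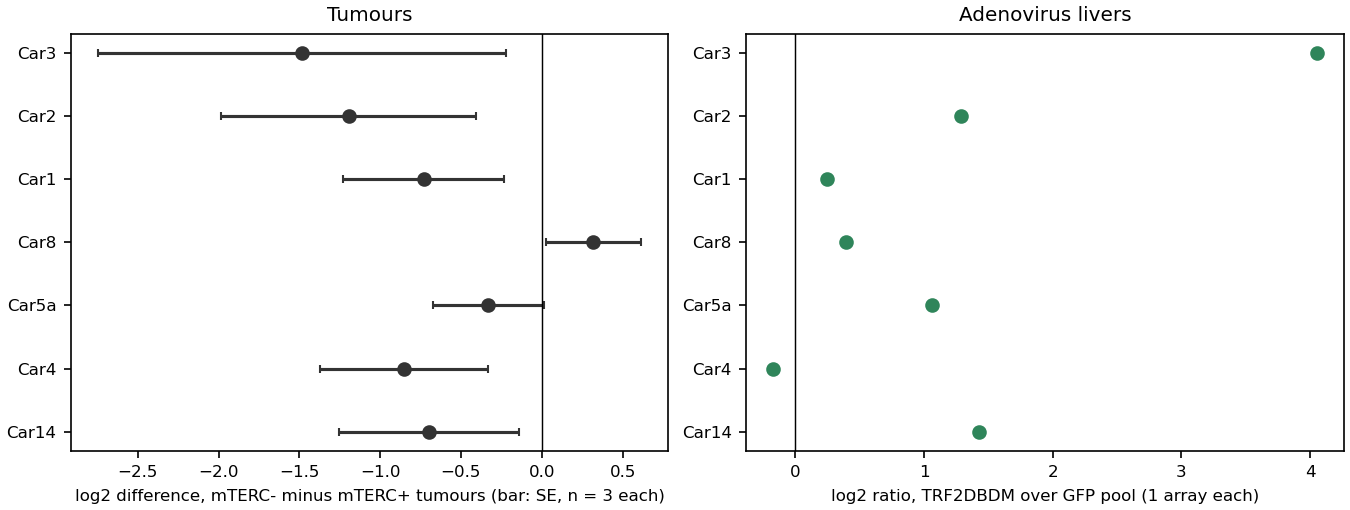
Left, log2 difference of each carbonic anhydrase between mTERC- and mTERC+ tumours (points; bars are SE, n = 3 tumours each). Right, log2 ratio of the TRF2DBDM over the GFP pool (1 array each, no error); Car3 is at -1.48 with the widest bar of the 7 in the tumours, where bars of all genes but Car8 overlap with it, and at 4.05 in the livers, apart from the other 6.

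The remaining carbonic anhydrases were tested between the tumour groups. They are what was left of the family after the genes followed here were picked. This list, like the others, was chosen with earlier results of these data known. Of 9 such genes 4 were bright enough, and limma called 0 of them, with 0 at an unadjusted p below 0.05; over all genes it called 0.00835%, which is 1 of 11980, and 5.04% had an unadjusted p below 0.05. Car13, the cytosolic neighbour of Car1, was at 167.2, 111.1 and 189.8 in mTERC- and 67.4, 88.3 and 94.4 in mTERC+ tumours 1, 2 and 3. These groups did not overlap, with a log2 difference of 0.69 (limma SE 0.41, adjusted p = 0.953 in limma). In the livers 2 of the 9 were compared, each bright on 1 array alone, Car13 with GFP and Car7 with TRF2DBDM. Each had to be higher on that array, so nothing is read from their directions. Car13 was at 12.9 with TRF2DBDM and 67.3 with GFP, a log2 ratio of -1.15, and Car7 was at 60.1 and 11.5, a log2 ratio of 1.08. Car6, the secreted enzyme of saliva, was at 3.5, 66.3 and 59.2 in mTERC- and 91.9, 116.4 and 110.5 in mTERC+ tumours 1, 2 and 3, again without overlap (log2 difference -1.01, limma SE 0.55, adjusted p = 0.953 in limma). Car7 and Car10 had log2 differences of 0.43 and 0.12. Car9 and Car12, membrane enzymes known from hypoxic tumours, were dim in most tumours, at 3.6 to 86.9 and 3.0 to 152.8, and above the array median in 1 and 2 of them.

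Genes that move bicarbonate and acid across membranes were read beside the enzymes. Of 11 tested in the tumours, limma called 0, and the median log2 difference was -0.20 against 0.02 over all genes. At an unadjusted p below 0.05 in limma there was 1 gene, beside 5.04% of all genes tested. That 1 gene was Aqp1, a water channel that also passes carbon dioxide, at 636.4, 498.6 and 193.3 in mTERC- and 559.7, 1054.9 and 950.6 in mTERC+ tumours 1, 2 and 3 (log2 difference -0.99, adjusted p = 0.953 in limma). Slc4a4, the sodium bicarbonate cotransporter, was not among the genes named by p or by ratio. It had its lowest and highest signal, 420.6 and 2038.5, in the same mTERC- tumours 1 and 3 as the low and a high value of Car3. In mTERC- tumour 2 it was at 1216.9, and in mTERC+ tumours 1, 2 and 3 at 842.9, 669.7 and 1342.9. Its log2 difference was 0.16 (limma SE 0.48, adjusted p = 0.985 in limma). In the livers 5 of 9 genes were higher and 4 lower with TRF2DBDM, where 4050 of all 7789 genes compared were higher. Of the lower ones 2, Slc26a6 and Slc16a3, were bright with GFP alone, and of the 7 bright on both arrays 5 were higher. None had a ratio of 2 (0 genes), and the median log2 ratio was 0.04. Slc4a2, an anion exchanger, and Slc26a1, a sulfate and bicarbonate exchanger, were at -0.91 and 0.87.

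Enzymes that use bicarbonate were read next. In the tumours limma called 0 of 9 carboxylases, with 2 at an unadjusted p below 0.05, beside 5.04% of all genes tested. It called 0 of 8 urea cycle genes, with 0 at that p. The median log2 differences of these lists were -0.16 and -0.05. The pair below that p was Pcx, pyruvate carboxylase, with a log2 difference of -0.93 (limma SE 0.38, adjusted p = 0.953 in limma), and Acacb, an acetyl-CoA carboxylase, with -1.34 (limma SE 0.59, adjusted p = 0.953 in limma). In the livers Cps1, carbamoyl phosphate synthetase, which takes bicarbonate into the urea cycle, was at 2909.2 with TRF2DBDM and 804.5 with GFP, a log2 ratio of 1.81. Pcx was at 887.7 and 722.1, a ratio of 0.29 on the log2 scale. Of 7 urea cycle genes compared 4 were at least 2-fold higher with TRF2DBDM, namely Cps1, Otc, Arg1 and Asl, beside 4.62% of all genes compared. The median log2 ratio was 1.17 against 0.02 over all genes. Nags, whose product activates Cps1, was lower, at 444 against 604.4.

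Genes of pericentral hepatocytes, the zone where Car3 is known from, were read in the same way. In the tumours 7 of the 10 tested had a higher mean log2 level in mTERC- and 3 a lower one, with a median log2 difference of 0.49. The lower ones were Gulo, Aldh1a1 and Glul, at -0.76, -0.26 and -0.01. Limma called 0 of the 10, with 2 at an unadjusted p below 0.05, beside 5.04% of all genes tested. Those 2 were Cyp2e1, an ethanol-metabolising P450, at 1714.2, 1867 and 487 in mTERC- and 88.7, 514.1 and 342.5 in mTERC+ tumours 1, 2 and 3 (log2 difference 2.04, limma SE 0.57, adjusted p = 0.906 in limma), and Nkd1, a Wnt target, with 1.75 (limma SE 0.54, adjusted p = 0.906 in limma). In the livers 9 of 12 were higher with TRF2DBDM and 4 of 12 at least 2-fold, with a median log2 ratio of 0.49. Of these Slc1a2 was bright with TRF2DBDM alone and so had to be higher there. Of the 11 bright on both arrays 8 were higher. Over all 7789 genes compared 4050 were higher, and 4.62% at least 2-fold. Cyp1a2, Cyp2e1 and Aldh1a1 had log2 ratios of 3.21, 1.54 and 1.44, while Glul, glutamine synthetase of the innermost ring of hepatocytes, was at 1128.3 and 1135.4.

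Car3 is also known as a gene of male rodent liver that follows growth hormone. In the tumours limma called 0 of 8 male-biased, 0 of 6 female-biased and 0 of 13 growth hormone genes. Of each list 1 gene had an unadjusted p below 0.05 in limma, beside 5.04% of all genes tested. These were C6, Cyp17a1 and Igf1, with log2 differences of -1.55, -1.34 and -1.16 and an adjusted p of 0.953 each in limma. In the livers 5 male-biased genes were compared, with a median log2 ratio of 1.47, and 7 female-biased genes, with a median of 1.36. Of these Mup3, Ugt2b1, Cyp3a44 and Hao2 were bright with TRF2DBDM alone, and so had to be higher there. Of the genes bright on both arrays, 3 of 3 male-biased and 5 of 5 female-biased ones were higher with TRF2DBDM, as were 4050 of all 7789 genes compared. The male-biased Slco1a1 and Hsd3b5, dim on both arrays, were lower, at 2.7 against 21 and 1.6 against 12.3. The male-biased Mup3 was at 122.5 and 1.8 and Ugt2b1 at 231.1 and 35.3, and the female-biased Cyp2b13 at 941.4 and 73.4. Ghr, the growth hormone receptor, and its target Igf1 had log2 ratios of 1.95 and 1.60, but 6 of the 11 genes of that list were lower and its median was -0.19. Sex chromosome transcripts were read beside Car3. Xist was highest in the tumour with the lowest Car3, mTERC- tumour 1, at 920.5, and at 9.6 to 68.4 in the other tumours. Eif2s3y of the Y chromosome was at 70.5, 141.9 and 52.8 in mTERC- and 198.8, 138.5 and 219.8 in mTERC+ tumours 1, 2 and 3, lowest in mTERC- tumour 3, where Car3 was next to highest. Kdm5d and Uty, also of the Y chromosome, were at 61.3 and 27 in mTERC- tumour 1, and at 13.3 to 95.9 and 42.4 to 104.3 in the other tumours. In the pools, 16.6-fold apart in Car3, Xist was at 3607 with TRF2DBDM and 2307.6 with GFP, and Eif2s3y at 2.3 and 0.7. The part of sex in the Car3 values was not tested.

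Car3 protein carries cysteines that bind glutathione under oxidative stress, so genes of the Nrf2 and glutathione response were included. In the tumours limma called 0 of 12, with 4 at an unadjusted p below 0.05, beside 5.04% of all genes tested. These 4 were Cbr3, Srxn1, Gclc and Hmox1. The groups did not overlap for 4 genes, Cbr3, Srxn1, Gclc and Nqo1, each higher in mTERC-, beside 5.75% of all genes tested with that pattern. Cbr3, a carbonyl reductase, was at 9562, 4376.3 and 4844.2 in mTERC- and 626.9, 3005.3 and 856.7 in mTERC+ tumours 1, 2 and 3 (log2 difference 2.29, limma SE 0.50, adjusted p = 0.734 in limma). Srxn1, sulfiredoxin, and Gclc, a subunit of the enzyme that starts glutathione synthesis, had log2 differences of 1.56 and 0.87, and Hmox1, heme oxygenase, had -1.32. In the livers 8 of 12 were higher with TRF2DBDM, where 4050 of all 7789 genes compared were. Of the 12, 1 was at least 2-fold higher, beside 4.62% of all genes compared. This was Gstm3, a glutathione transferase (log2 ratio 1.24), and the median log2 ratio of the list was 0.12.

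**Figure D4:**
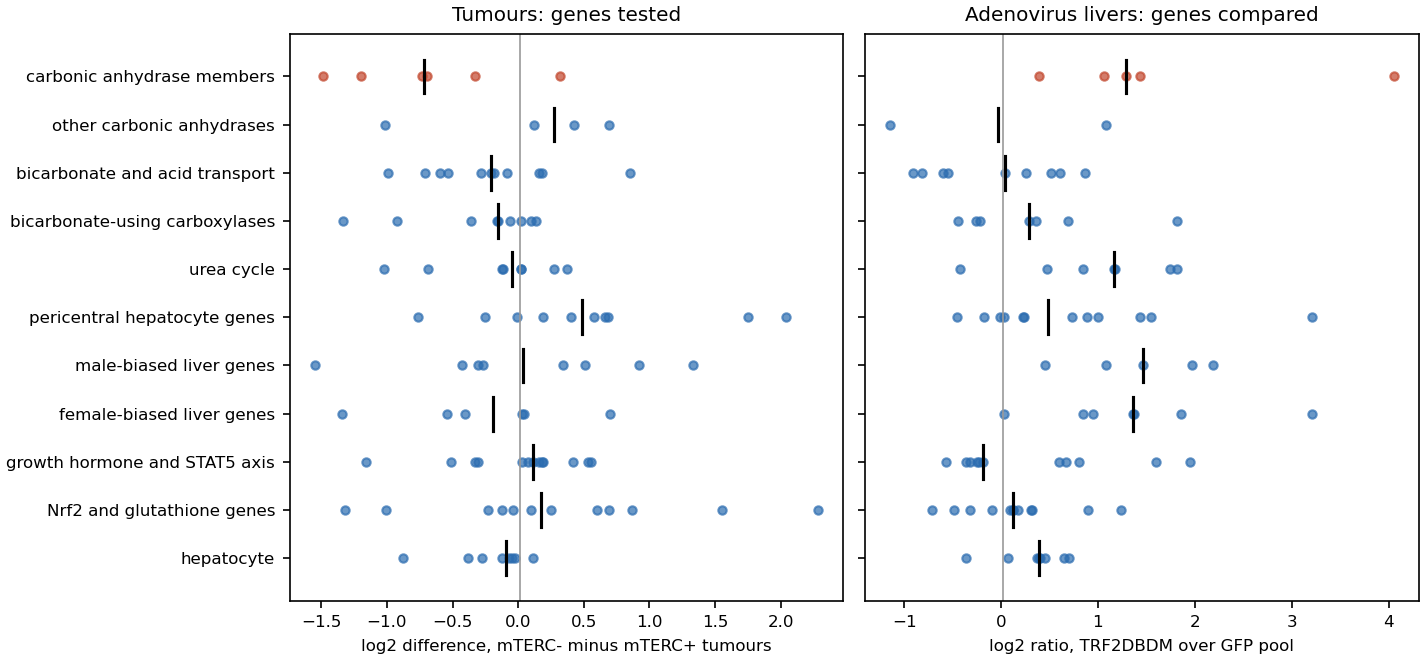
Log2 difference between mTERC- and mTERC+ tumours (left, genes bright enough to be tested) and log2 ratio of the TRF2DBDM over the GFP pool (right, genes compared), 1 point per gene, for the carbonic anhydrases followed here (red) and the lists read beside them (blue). Black bars are list medians and the grey line is the median of all genes, at 0.02 on both sides; Car3 lies alone at 4.05 on the right.

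Markers of skeletal muscle and fat, the other tissues rich in Car3, were read beside it. Of 11 muscle markers none was above the array median in every tumour (0 genes), all 11 were below it in both livers, and their summed signal was 381.2 to 743.1 in mTERC- and 351.4 to 577.9 in mTERC+ tumours. Acta1, the actin of skeletal muscle, was at 6.8 to 45.4 in the tumours, and at 26.7 with TRF2DBDM and 8.8 with GFP. The sum of 6 adipocyte markers was 841.6 to 2579.4 in mTERC- and 480.5 to 1067.9 in mTERC+ tumours, and 258.3 with TRF2DBDM and 329.8 with GFP. Fabp4, which macrophages and endothelium also express, made up 177.1 to 2418.5 of it in the tumours, while Adipoq, specific to fat, was at 5.8 to 55.7 in the tumours and 14.3 and 28.1 in the livers. Of 8 hepatocyte markers 7 were higher with TRF2DBDM, where 4050 of all 7789 genes compared were, and none was 2-fold higher (0 genes). Their median log2 ratio was 0.39, against 4.05 for Car3. Markers of macrophages and osteoclasts, the latter a site of Car2, were summed over 8 genes. The sums were 7451.3 to 10266.3 in mTERC- and 7356.8 to 29329.1 in mTERC+ tumours, and 1592 and 1659.8 with TRF2DBDM and GFP. In the tumours all 7 tested had a lower mean log2 level in mTERC-, with a median log2 difference of -0.83. Limma called 0 of them, with 3 at an unadjusted p below 0.05, beside 5.04% of all genes tested. Of 5 compared in the livers 2 were higher with TRF2DBDM and 3 lower. Csf1r and Adgre1 had log2 ratios of 1.70 and 1.16, and Cd68 of -1.24. Biliary markers, read because bile duct cells hold Car2, summed over 6 genes to 805.5 to 1314.4 in mTERC- and 558.2 to 911.4 in mTERC+ tumours, and to 161 and 243 in the livers.

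Among 11979 other genes, those whose log2 level followed Car3 most closely over the 6 tumours were Tmc5 (Pearson r 0.996), Ptprf (0.98), Mad2l2 (0.98), Pik3ca (0.98), Usp43 (0.97) and Ppp4r3a (0.97). Tmc5, a membrane protein of the TMC family, was at 74.4, 128.5 and 227.1 in mTERC- and 182, 161.3 and 233.6 in mTERC+ tumours 1, 2 and 3, a far narrower range than that of Car3. In the livers, where Car3 was far higher with TRF2DBDM, Ptprf, a receptor phosphatase, and Mad2l2, a DNA repair adaptor, had log2 ratios of -0.50 and -0.77, and Pik3ca, a lipid kinase, of 0.59. The most opposite genes were Iba57 (r -0.997), Ltf (-0.995) and Anxa1 (-0.99). Ltf, lactoferrin of neutrophil granules, was at 772.5, 168 and 5.4 in mTERC- and 22.7, 81.8 and 3.9 in mTERC+ tumours 1, 2 and 3, so that it was highest where Car3 was lowest. The summed signal of 8 neutrophil markers was 21886, 15062.2 and 9100.9 in mTERC- and 1189.5, 3035.5 and 350.6 in mTERC+ tumours 1, 2 and 3. Its largest parts in mTERC- tumours 1, 2 and 3 were S100a8, at 7406.9, 6052.8 and 2758.7, and S100a9, at 10671.1, 8033.2 and 5523.2. The groups did not overlap for S100a8, S100a9 and Csf3r, all higher in mTERC-, beside 5.75% of all genes tested with that pattern. They overlapped for Camp, Ngp, Ltf, Mmp8 and Cxcr2. S100a8 was the 1 gene called over all genes (adjusted p = 0.0246 in limma). No gene was called (0 genes) with median centring, a pseudocount of 1, the mean of the probe sets or no variance trend, or when mTERC- tumour 2, mTERC+ tumour 1 or mTERC+ tumour 3 was dropped. In the livers Ltf was at 158 with TRF2DBDM and 95.3 with GFP, so that it was higher where Car3 was higher, while the neutrophil sum was 1530.9 and 2092.5. Over the 11979 genes, 18 had an r above 0.95 with Car3 and 17 one below -0.95. The part of neutrophils in the Car3 values was not tested.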

How the data were processed

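The series holds 8 Affymetrix arrays of 2 types. The deposited values are MAS5 signal intensities per probe set on a linear scale, as the submitters' processing notes name MAS5; its version is not given in the sources used here. Each array took 6 microg of RNA, per the labels' protocols. With 2% trimmed at either end the mean signal was 150 on every array, so the scaling by the authors was kept. Of 45101 probe sets on the tumour arrays 34958 had 1 symbol in the platform annotation, 932 several and 9211 none; on the adenovirus arrays these were 20393, 691 and 1606 of 22690. A gene was represented by its single-symbol probe set with the highest mean of log2(signal + 32).

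The test between tumour groups was that of limma 3.58.1, run in R 4.3.3 (lmFit and eBayes with a variance trend, two-sided) over the 11980 genes whose mean level reached the median over all probe sets, and a gene was called at a Benjamini-Hochberg adjusted p below 0.05. The p-values set the difference of the group means against the spread between these tumours, with variances moderated over all genes tested. The liver pools have 1 array each and no test; the 7789 genes that reached the array median in 1 or both were compared, and a ratio of 2 was counted. Precision is limited by the number of arrays. Tables were made with Python 3.11.15, and the fit was tested on simulated data.

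The genes and the lists were chosen with earlier results of these data known. Named were all probe sets of the 7 genes, up to 4 genes of each list by p or by ratio, defining markers, and the 6 genes most like and 3 most unlike Car3, passing over predicted genes. Some further list genes, such as Slc4a4 and Nags, were named outside these rules. Some list genes had no single-symbol probe set and were left out. Alternatives were quantile normalization, median centring, pseudocounts of 1 and 100, the mean of a gene's probe sets, no level filter, no variance trend, array weights and each tumour left out in turn.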

Additional observations from a re-analysis of the deposited data

How the results depend on the processing

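Over all genes limma called 1 gene, and 0 with median centring, a pseudocount of 1, the mean of the probe sets or no variance trend; with each tumour left out in turn the count was 0 to 6, with 0 when mTERC- tumour 2, mTERC+ tumour 1 or mTERC+ tumour 3 was dropped, 2 when mTERC+ tumour 2 was, and 6 when mTERC- tumour 1 was. Among the 79 tested genes of the pathway lists it called 0, and 0 under each alternative. Of the 79, 12 had an unadjusted p below 0.05 in limma, beside 5.04% of all genes tested. The log2 difference of Car3 was -1.57 to -0.71 under the other alternatives, and -2.48 to -0.45 with each tumour left out. Its log2 ratio in the livers was 3.69 to 4.26. Of 112 values of the 7 genes under an alternative 0 changed sign and 110 stayed within 1 SD between tumours, or within 1.5-fold for the livers. The exceptions came with a pseudocount of 1: Car4 in the tumours (-2.04) and Car5a in the livers (1.69). The SD used was 1.54 for Car3, 0.42 for Car5a and 0.36 for Car8, larger than the tumour difference of each. For these genes a value of 0 would also have counted as staying, so that count says little about them. Median centring moved the median log2 ratio of all genes in the livers from 0.02 to -0.13. No paired analysis was possible because the labels give no replicate numbers that link tumours. Precision is limited by 3 tumours a group and 1 pool per virus, and values near the array median carry little signal over background.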
